A study of Mus musculus with 6 samples.

Results

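The genes described here are 43 genes of the lysosome: subunits of the vacuolar proton pump (V-ATPase), lysosomal enzymes and proteins of the lysosomal membrane, read in the lungs of mice with a dominant-negative BMP type 2 receptor (dnBMPR2). They were chosen by gene symbol, as all probe sets whose only platform symbol was one of these genes. This gave 97 of the 45037 probe sets on the array and 41 of the 43 genes, with 83 probe sets left after a filter on dim signals, at least 1 for each of the 41. Atp6v0c and Cd63 had no such probe set and were not analysed here. The 41 genes stand beside 13215 genes measured in all.

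Whole lung was taken from mice, and each of the 6 Affymetrix arrays held RNA pooled from 3 animals. The 8 week group and the 1 week group were inducible transgenic mice, labelled SM22-dnBMPR2, in which the receptor had been activated for 8 weeks and for 1 week. SM22 (transgelin) is a smooth muscle protein, and its promoter directed the transgene to smooth muscle. Right ventricular pressure was high in the transgenic mice when they were killed, according to the series description. The controls were described as carrying the transactivator without the receptor transgene. The male control label gave SM22-rtTA only, while the female control label gave sex and the FVB/N strain and no transgene. Each group had 1 female and 1 male pool, and the labels gave no ages. No activation time was labelled for the controls, and 1 control pair was the reference for both durations. The 2 comparisons against control therefore share their control arrays. Age, inducer exposure and tissue handling may differ between the groups and cannot be told apart from the transgene.

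Median deposited intensity was 50.49 and 52.92 in the 8 week pools, 60.22 and 57.1 in the 1 week pools, and 63.41 and 61.43 in the control pools. Between 11.1% and 12.5% of probe sets on an array were at the lowest deposited value of 10. The tissue label matched its markers: none of the 13 alveolar type 2, 8 alveolar type 1 and 10 endothelial markers measured lay at the lower limit of the scale on any array. The endogenous receptor gene Bmpr2 had log2 changes of -0.26 at 8 weeks and -0.08 at 1 week at its brightest probe set. Whether that probe set reads the transgene is not given in the sources used here.

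Lysosomes are acidic organelles in which proteins, sugars and lipids from the cell surface, from engulfed particles and from the cell itself are broken down. The V-ATPase makes them acidic: its V1 sector, in the cytosol, splits ATP, and its V0 sector, in the membrane, moves protons inwards. In the lung, alveolar macrophages are rich in lysosomes, and alveolar type 2 cells store surfactant in related organelles, the lamellar bodies. Many lysosomal genes are controlled together by the transcription factors TFEB, TFE3 and MITF, which bind a short palindromic element (CLEAR) near gene starts.

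The promoters are shown because some of them hold a motif that the choice of genes did not use. RefSeq promoters (build GRCm38.p6, from 250 bases before to 50 bases after the start of each transcript, read along the gene's strand) were found for 36 of the 43 genes. They were searched for the core CACGTG and for the longer TCACGTGA, which contains that core. Both read the same on both strands. The core was found in 13 of the 36 genes (36.1%), against 10.2% of the 14452 genes with a probe set and 8.09% of the 27025 genes of the promoter table. The longer form was in 6 of the 36 genes (16.7%), against 1.63% and 1.12% in those backgrounds. It occurred in 3 of 11 proton pump genes and in 3 of 25 of the others. Stretches around each longer form follow, with TCACGTGA in capitals and none reaching more than 30 bases past the start.
Ctsd (chr7:142387873-142387972, minus strand): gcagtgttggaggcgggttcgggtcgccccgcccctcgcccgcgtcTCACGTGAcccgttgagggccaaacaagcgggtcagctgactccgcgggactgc
Ctsa (chr2:164833714-164833802, plus strand): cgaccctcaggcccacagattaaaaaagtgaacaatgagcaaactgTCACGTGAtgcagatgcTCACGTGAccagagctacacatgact
Atp6v0d1 (chr8:105566035-105566114, minus strand): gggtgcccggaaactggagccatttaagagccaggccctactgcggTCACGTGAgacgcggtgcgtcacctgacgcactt
Atp6v1a (chr16:44139338-44139437, minus strand): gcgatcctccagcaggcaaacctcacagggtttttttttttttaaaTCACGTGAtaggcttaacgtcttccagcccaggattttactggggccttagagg
Atp6v0e (chr17:26676352-26676425, plus strand): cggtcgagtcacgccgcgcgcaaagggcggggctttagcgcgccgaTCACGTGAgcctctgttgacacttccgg
Mcoln1 (chr8:3500427-3500526, plus strand): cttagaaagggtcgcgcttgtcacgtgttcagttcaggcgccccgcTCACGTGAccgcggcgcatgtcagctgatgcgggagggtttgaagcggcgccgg
In Ctsa the form stood at 2 places, with centres 9 bases before and 8 bases after the start. In Atp6v0d1 its centre was at the start itself, and in Atp6v0e 6 bases after it. In Mcoln1, Ctsd and Atp6v1a the centre lay 42, 95 and 128 bases before the start. A match describes letters only and does not show that a factor bound there.

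**Figure D1:**
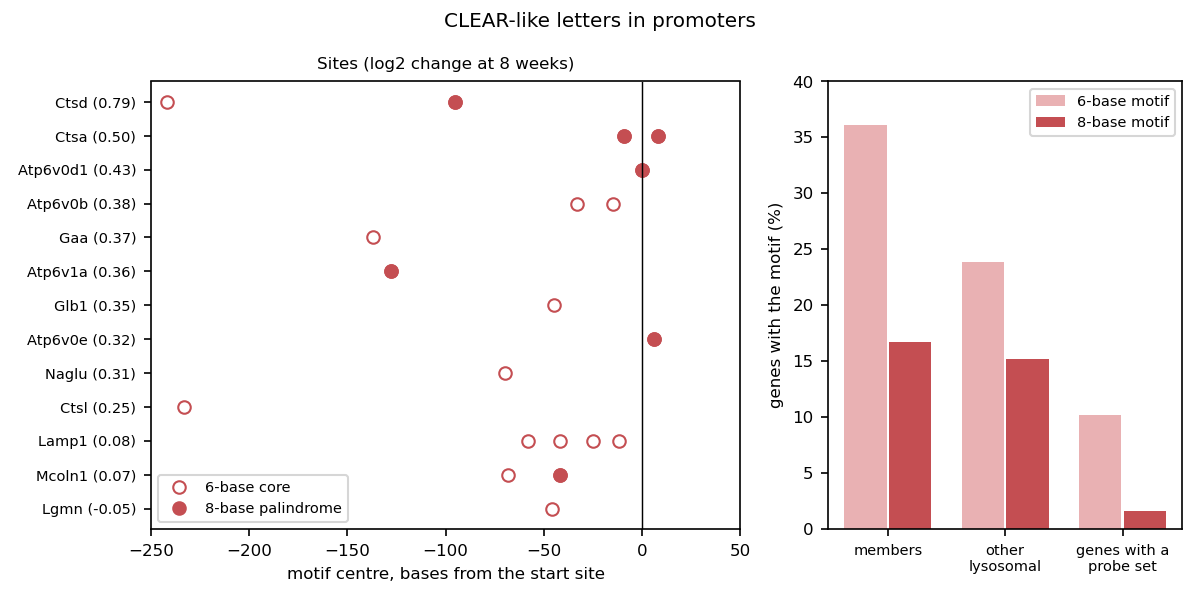
The left panel places each CACGTG core (open) and each TCACGTGA (filled) by its distance in bases from the start of transcription, 1 row a gene, with the gene's log2 change at 8 weeks against control in brackets. The right panel gives the percent of genes with each motif: 36.1% and 16.7% of the genes described here, 23.9% and 15.2% of 46 other lysosomal genes, and 10.2% and 1.63% of genes with a probe set.

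After 8 weeks the lysosomal genes were, as a list, higher than in control lungs by a modest amount, while no single probe set passed the test. Values are log2 intensities after quantile normalization, and each gene is read at its brightest probe set. Where a gene has several probe sets, only those left after the filter are read here. The value of the female pool is given before that of the male pool. The median change of the 41 genes was 0.32 on the log2 scale (0.34 in females, 0.30 in males), beside 0.08 for all 13215 genes. The fitted change was positive in 37 genes and negative in 4, and 34 were higher in both sexes. In 30 of the 41 genes (73.2%) both 8 week pools lay above both control pools. This held for 27.2% of all genes, and for 24.8% of the 8425 genes at least as bright as the dimmest of the 41. In 1 gene (Tpp1) both lay below, against 14.1% of all genes, and in 10 the groups overlapped. In whole lung, more cells of a type and more RNA per cell cannot be told apart.

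By limma with Benjamini-Hochberg adjustment over 27022 probe sets at a threshold of 0.05, 0 of the 83 lysosomal probe sets passed at 8 weeks, against 0.596% of all probe sets. The smallest adjusted p among them was 0.0637, beside 0.047 over all probe sets. At an unadjusted p under 0.05 there were 24 of the 83 probe sets, all higher, against 23% of all probe sets in either direction. By gene, 14 of 41 were higher at that level, against 13.8% of all genes, and 0 lower, against 6.26%. When the variance was moderated with trend and robust settings, 16 probe sets of 13 genes passed, all higher, against 2.73% of probe sets higher and 4.36% lower over the array. The residual spread rests on how far female and male changes differ, since no group had 2 pools of the same sex. P-values thus cover only the spread between these pools.

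**Figure D2:**
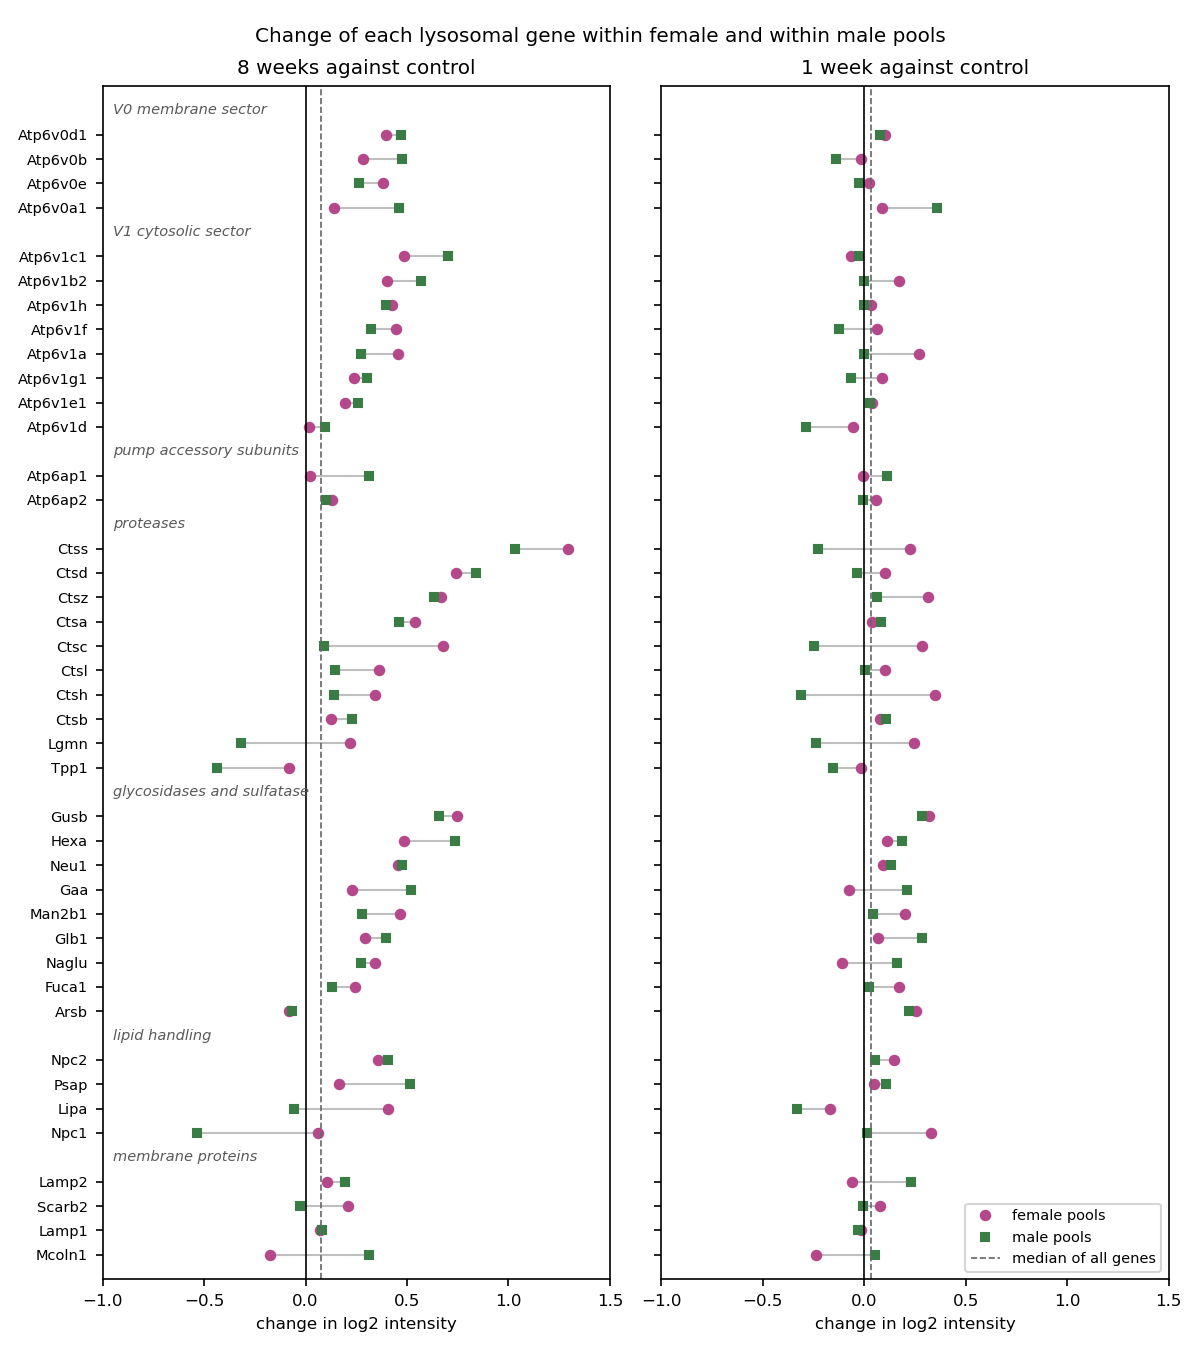
Change in log2 intensity (horizontal axis) within the female pools (circles) and within the male pools (squares) for each of the 41 genes, by role, at 8 weeks against control on the left and at 1 week against control on the right. The dashed line is the median of all genes. At 8 weeks most points lie to the right of that line, and at 1 week they lie on both sides of 0.

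The proton pump was measured at 14 of its 15 genes on the list. All 14 had higher values in both sexes at 8 weeks, with a median change of 0.34 and a range of 0.06 to 0.59. In 10 of them (71.4%) the groups did not overlap, while 27.2% of all genes were higher without overlap. No pump gene passed the test.

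In the V1 sector, the median of 8 genes was 0.37, and 6 had no overlap (75%, against 27.2% of all genes). Atp6v1c1, the C subunit that holds V1 to V0, had log2 intensities of 10.02 and 10.59 in the 8 week pools, 9.47 and 9.86 in the 1 week pools, and 9.54 and 9.89 in the control pools. Every other pool lay below those at 8 weeks, and the change against control was 0.59 (1.51-fold, SE 0.14, adjusted p = 0.113 by limma). It passed with trend and robust moderation, and its 3 probe sets gave 0.36 to 0.59. Atp6v1b2, the ATP-binding B subunit, read 10.15 and 10.31 at 8 weeks, 9.92 and 9.74 at 1 week, and 9.74 and 9.74 in control. Values were highest at 8 weeks, with a change of 0.48 (SE 0.15, adjusted p = 0.163), and its second probe set gave 0.46 with overlap.

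Atp6v1h, a regulatory subunit of V1, read 9.51 and 9.53 at 8 weeks, 9.12 and 9.13 at 1 week, and 9.08 and 9.14 in control. Sexes were close in each group, only the 8 week pools stood apart, and the change was 0.41 (SE 0.13, adjusted p = 0.165). A second probe set of Atp6v1h went the other way, with a change of -0.37 (adjusted p = 0.252). The catalytic subunit Atp6v1a had the same disagreement, at 0.36 and -0.30. Atp6v1f and Atp6v1e1, subunits of the stalks that join the 2 sectors, had changes of 0.38 and 0.23 without overlap.

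Atp6v1g1, a further stalk subunit, had 10.61 and 11.12 at 8 weeks, 10.45 and 10.75 at 1 week, and 10.37 and 10.81 in control. Male pools were higher than female pools in each group, so the groups overlapped, and the change at 8 weeks was 0.27 (adjusted p = 0.306). Atp6v1d, of the rotating central stalk, had the smallest change of the pump at the brightest probe sets, 0.06 (adjusted p = 0.848). Its pools read 9.51 and 10.28 at 8 weeks, 9.45 and 9.89 at 1 week, and 9.50 and 10.18 in control, and at this probe set the sexes differed more than the groups. A second probe set of Atp6v1d gave 0.28 without overlap and a female minus male difference of -0.10, and another gave 0.09.

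In the V0 sector the median of 4 genes was 0.35, and 3 had no overlap (75%, against 27.2% of all genes). Atp6v0d1, subunit d, which couples the rotor to V0, read 10.65 and 10.68 at 8 weeks, 10.36 and 10.28 at 1 week, and 10.25 and 10.21 in control. The 8 week pools were the highest and the control pools the lowest, with a change at 8 weeks of 0.43 (SE 0.13, adjusted p = 0.156). Its promoter holds TCACGTGA at the start.

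Atp6v0b, a subunit of the proton-carrying ring, read 10.57 and 10.71 at 8 weeks, 10.27 and 10.09 at 1 week, and 10.29 and 10.23 in control, a change of 0.38 at 8 weeks (adjusted p = 0.218). The small subunit Atp6v0e had 0.32. Atp6v0a1, subunit a, which forms the proton channel with the ring, read 9.30 and 9.04 at 8 weeks, 9.24 and 8.94 at 1 week, and 9.16 and 8.58 in control. Its groups overlapped at 8 weeks, where the change was 0.30 (adjusted p = 0.304), and its other probe sets gave -0.34, -0.26 and 0.09.

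The accessory subunits had the lowest median of the pump, 0.14. Atp6ap2, the prorenin receptor, read 11.56 and 11.70 at 8 weeks, 11.49 and 11.60 at 1 week, and 11.43 and 11.60 in control. These groups overlapped (0.11, adjusted p = 0.626), while the other probe sets of Atp6ap2 gave 0.15 and 0.30 without overlap. Atp6ap1 had 0.17 without overlap.

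**Figure D3:**
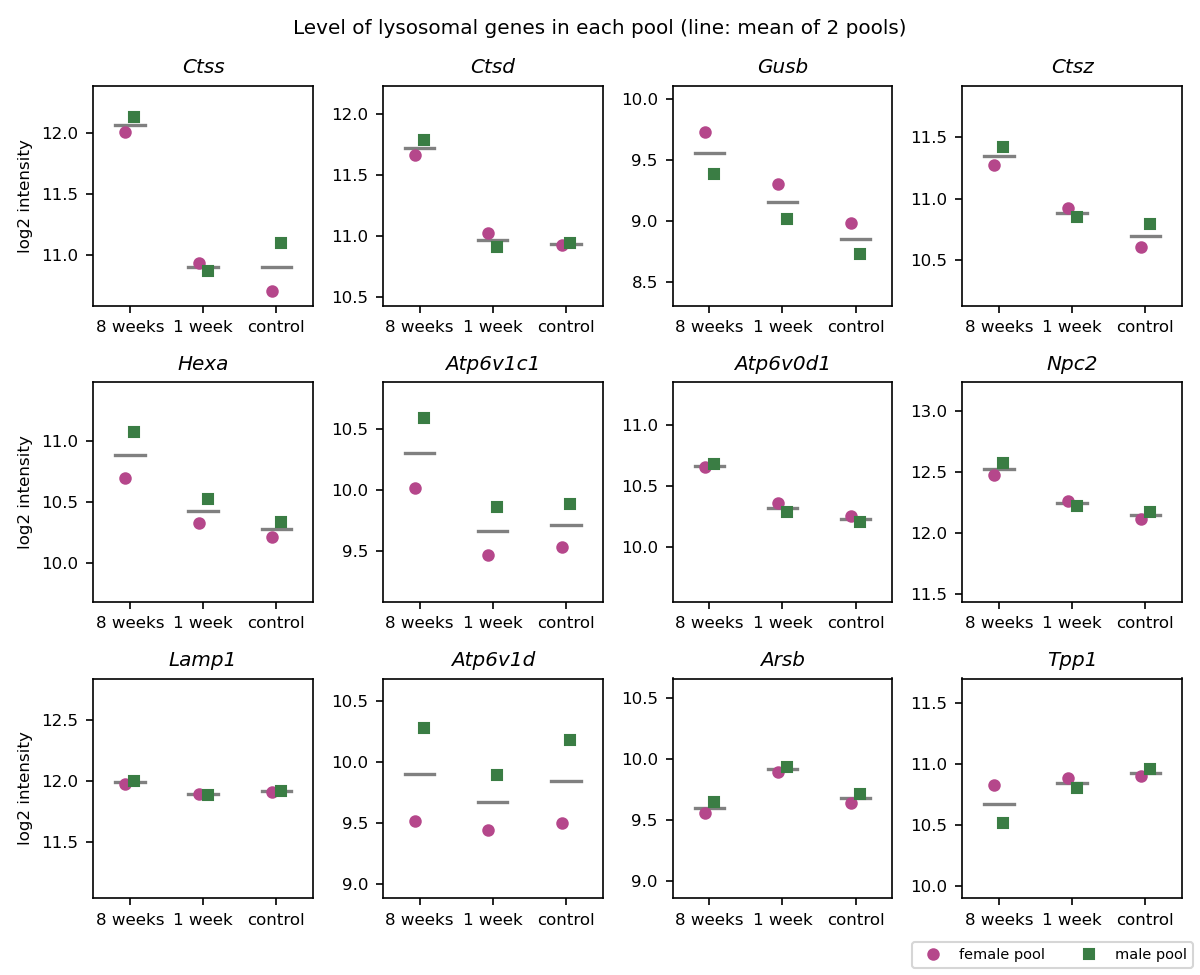
Log2 intensity (vertical axis, each panel spanning the same number of units) of 12 of the lysosomal genes in each female pool (circle) and male pool (square), with the 8 week, 1 week and control groups from left to right and a line at the mean of 2 pools. In Ctss and Ctsd both 8 week pools stand well above the 1 week and control pools, in Atp6v1c1 they are higher within each sex while the sexes also differ, in Atp6v1d the sexes are further apart than the groups, and in Lamp1 all 6 pools lie close together.

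The 10 proteases held the largest values. Their median was 0.32, and 8 were higher without overlap (80%, against 27.2% of all genes). Tpp1 was lower without overlap (10%, against 14.1%). Ctss, a cathepsin of antigen-presenting cells that trims the class II invariant chain, read 12.00 and 12.13 in the 8 week pools, 10.93 and 10.87 in the 1 week pools, and 10.71 and 11.10 in the control pools. The 1 week and control pools covered the same range and the 8 week pools lay about 1 log2 unit above it. The change was 1.16 (2.24-fold, SE 0.16, adjusted p = 0.0637), the smallest adjusted p of the 83 probe sets. Ctsd, the main aspartic protease of lysosomes, read 11.67 and 11.79 at 8 weeks, 11.02 and 10.91 at 1 week, and 10.92 and 10.94 in control. Again only the 8 week pools stood apart, with a change of 0.79 (1.73-fold, SE 0.14, adjusted p = 0.0829).

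Ctsz, a carboxypeptidase, read 11.27 and 11.42 at 8 weeks, 10.92 and 10.85 at 1 week, and 10.61 and 10.79 in control. The 3 groups did not overlap, and the change at 8 weeks was 0.65 (1.57-fold, SE 0.14, adjusted p = 0.107). All 3 of its probe sets gave 0.65 to 0.76. Ctsa, the protective protein that stabilises the sialidase Neu1 and the galactosidase Glb1, read 10.16 and 9.91 at 8 weeks, 9.66 and 9.53 at 1 week, and 9.62 and 9.45 in control. Values were highest at 8 weeks, with a change of 0.50 (1.42-fold, SE 0.13, adjusted p = 0.129). A second probe set of Ctsa gave 0.22 with overlap. The 2 partners of Ctsa had 0.47 (Neu1) and 0.35 (Glb1) without overlap.

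Ctsb, an abundant cysteine protease, read 11.78 and 11.83 at 8 weeks, 11.73 and 11.71 at 1 week, and 11.66 and 11.60 in control. Its groups did not overlap, but the change was only 0.18 (SE 0.13, adjusted p = 0.46), and its 4 probe sets gave -0.13 to 0.29. Ctsc, which activates the serine proteases of neutrophils, read 11.78 and 11.43 at 8 weeks, 11.39 and 11.09 at 1 week, and 11.10 and 11.34 in control. Both values at 8 weeks exceeded the rest, the change was 0.38 (adjusted p = 0.312), and the other 2 probe sets gave 0.60 and 1.09. Ctsl and Ctsh, the second known for processing surfactant protein precursors, had 0.25 and 0.24.

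Tpp1, a peptidase that works from the amino end of proteins, was the exception. It read 10.82 and 10.51 at 8 weeks, 10.88 and 10.80 at 1 week, and 10.90 and 10.95 in control, a change of -0.26 (SE 0.15, adjusted p = 0.365). Both 8 week pools lay below both control pools, but the second probe set gave 0.08. Lgmn, the asparaginyl endopeptidase, read 9.46 and 9.11 at 8 weeks, 9.48 and 9.19 at 1 week, and 9.24 and 9.43 in control, so that its female and male changes had opposite signs.

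Among 9 sugar-cleaving enzymes, counting the sulfatase Arsb, 8 were higher at 8 weeks without overlap (88.9%, against 27.2% of all genes). The median was 0.37. Gusb, the beta-glucuronidase, read 9.73 and 9.39 at 8 weeks, 9.30 and 9.02 at 1 week, and 8.98 and 8.73 in control. The values ordered by duration within each sex, with 0.70 at 8 weeks (1.63-fold, SE 0.13, adjusted p = 0.0883) and 0.30 at 1 week (adjusted p = 0.901). Its second probe set gave 0.21 at 8 weeks with overlap, and there the sexes went opposite ways (0.80 in females, -0.39 in males). Hexa, the alpha subunit of the hexosaminidase that degrades ganglioside GM2, read 10.70 and 11.07 at 8 weeks, 10.32 and 10.52 at 1 week, and 10.21 and 10.34 in control. Within each sex the value at 8 weeks was highest, with a change of 0.61 (1.53-fold, SE 0.14, adjusted p = 0.111).

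Gaa, the acid glucosidase that clears glycogen, read 9.08 and 9.02 at 8 weeks, 8.77 and 8.72 at 1 week, and 8.85 and 8.51 in control. The 8 week pools were above the rest, with a change of 0.37 (SE 0.15, adjusted p = 0.23), but the second probe set gave 0.11 with overlap. Man2b1 and Naglu, which cleave mannose and heparan sulfate chains, had 0.37 and 0.31. A second probe set of Man2b1 gave -0.08 with overlap. Fuca1, the fucosidase, had 0.19 at its brightest probe set and 0.64 at another, and the second one passed with trend and robust moderation.

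Arsb, which removes sulfate from dermatan sulfate, was the only gene of this class below control in both sexes at 8 weeks, read at the brightest probe sets. It read 9.55 and 9.65 at 8 weeks, 9.89 and 9.94 at 1 week, and 9.64 and 9.71 in control. The 1 week pools were highest and the other groups overlapped, with a change at 8 weeks of -0.08 (adjusted p = 0.754). A second probe set of Arsb gave 0.21, with each male pool at the lower limit.

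Of the 4 genes for lipid handling, 2 were higher without overlap (50%, against 27.2% of all genes), with a median of 0.26. Npc2, the soluble carrier that hands cholesterol to Npc1, read 12.47 and 12.58 at 8 weeks, 12.26 and 12.22 at 1 week, and 12.12 and 12.17 in control. The 3 groups did not overlap, and the change at 8 weeks was 0.38 (SE 0.13, adjusted p = 0.189), with 0.20 to 0.55 over its 3 probe sets. Npc1, the membrane transporter that exports cholesterol, read 8.23 and 7.83 at 8 weeks, 8.50 and 8.37 at 1 week, and 8.17 and 8.36 in control. Its change was -0.24 (adjusted p = 0.486), with the lowest value in the male 8 week pool and overlap of the groups.

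Psap, the precursor of the saposins that help enzymes reach lipids, had 0.34 without overlap, but -0.01 at its other probe set. Lipa, the acid lipase that frees cholesterol and fatty acids, read 10.59 and 10.05 at 8 weeks, 10.01 and 9.77 at 1 week, and 10.18 and 10.10 in control. The groups overlapped (0.17, adjusted p = 0.566), and its other probe sets gave 0.13 and 0.95.

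The 4 membrane proteins measured had the lowest median of any class, 0.08, the same as the median of all genes, with a range of 0.07 to 0.15. Lamp1, the most used marker of the lysosomal membrane, read 11.98 and 12.00 at 8 weeks, 11.90 and 11.89 at 1 week, and 11.91 and 11.92 in control. All 6 pools lay close together, and although the groups did not overlap the change was 0.08 (SE 0.13, adjusted p = 0.755). Lamp2 had 0.15, the calcium channel Mcoln1 0.07 and Scarb2, which carries glucocerebrosidase to the lysosome, 0.09. The second probe set of Scarb2 gave 0.57 and passed with trend and robust moderation. Mcoln1 is also 1 of the 6 genes with TCACGTGA in its promoter. The 13 measured genes with the CACGTG core had a median change of 0.35 (range -0.05 to 0.79), and 11 were higher without overlap. The 21 with a promoter but no core had 0.30 (range -0.26 to 1.16), and 14 were higher without overlap. Of all genes, 27.2% were higher without overlap. The difference between genes with and without the core was not tested.

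Of the 41 genes, 26 had more than 1 probe set left after the filter, and in 9 of these the probe sets differed in sign at 8 weeks. Counted by probe set, 47 of 83 (56.6%) were higher at 8 weeks without overlap, against 23% of all probe sets, and 1 was lower, against 18.8%.

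**Figure D4:**
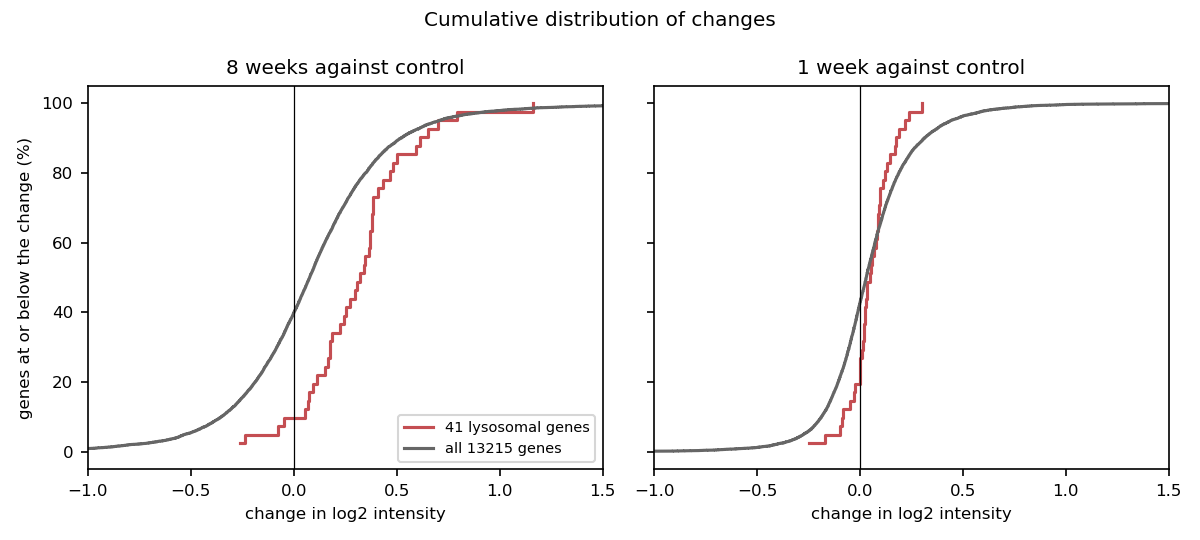
Percent of genes (vertical axis) at or below each change in log2 intensity (horizontal axis) for the 41 lysosomal genes and for all 13215 genes, at 8 weeks against control on the left and at 1 week against control on the right. The lysosomal curve lies to the right of that of all genes over most of its length at 8 weeks, where the medians are 0.32 and 0.08, and crosses it at 1 week, where they are 0.05 and 0.03.

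After 1 week of activation the median change of the lysosomal genes lay close to that of all genes. It was 0.05, beside 0.03 for all genes, with 0.08 in females and 0.01 in males. The fitted change was positive in 31 of the 41 genes and negative in 10, beside 7573 and 5642 of all 13215 genes. In 10 of 41 genes (24.4%) both 1 week pools lay above both controls, against 15.1% of all genes. In 3 genes (7.32%) both lay below, against 7.79% of all genes. The count of 10 was 3 with the values as deposited (9.26% of all genes) and 17 with arrays centred on their medians (19.4%). By limma 0 of 83 probe sets passed, against 0% of all probe sets, and the smallest adjusted p was 0.894. At an unadjusted p under 0.05 there were 2 probe sets, against 5.5% of all, both with lower values at 1 week (Atp6v0a1 at -0.72 and Mcoln1 at -0.66, neither the brightest of its gene), and with trend and robust moderation 0, against 0.0111% of all probe sets that were higher. The glycosidases and sulfatase had the highest median of any class, 0.12, and 5 of the 9 were higher without overlap (55.6%, against 15.1% of all genes). The genes with the highest values in both sexes were Gusb (0.30), Arsb (0.24), Atp6v0a1 (0.22) and Ctsz (0.19), and those with the lowest Lipa (-0.25), Atp6v1d (-0.17), Tpp1 (-0.09) and Atp6v0b (-0.08). These are values of the brightest probe sets. All other probe sets of Atp6v0a1 were lower at 1 week (-0.72, -0.11 and -0.10), and all others of Lipa (0.03 and 0.27) and Atp6v0b (0.06 and 0.11) were higher. The median of the pump was 0.02, and 1 of its 14 genes, Atp6v0d1, had no overlap (7.14%, against 15.1% of all genes).

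The lungs at 8 weeks were also set against those at 1 week, with the same 8 week arrays as before and a spread estimated over all 6 arrays. The median difference was 0.26, beside 0.04 for all genes, and in 28 of 41 genes both 8 week pools lay above both 1 week pools (24.1% of all genes), with 2 genes, Arsb and Npc1, below (15.7%). By limma 0 of 83 probe sets passed, against 0% of all, with a smallest adjusted p of 0.106 for Ctss and 23 probe sets at an unadjusted p under 0.05, all higher, against 18.5% of all probe sets in either direction. With trend and robust moderation 6 probe sets of Atp6v1c1, Ctsd, Ctss, Ctsz and Fuca1 passed, against 0.988% of all probe sets that were higher. Ctss differed by 1.17 (SE 0.16), Ctsd by 0.76 (SE 0.14) and Atp6v1c1 by 0.64 (SE 0.14, adjusted p = 0.15). All 14 pump genes were higher in both sexes, with a median of 0.29, and 9 had no overlap (64.3%, against 24.1% of all genes).

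Female and male pools differed at single probe sets. Over the 3 groups, 7 of the 83 lysosomal probe sets passed (8.43%), against 8.3% of all probe sets, with 4 higher in females (3.46% of all) and 3 lower (4.85%). In Arsb 1 probe set read 6.77, 6.47 and 6.35 in the female pools at 8 weeks, 1 week and control, while each male pool lay at the lower limit of 3.95. That makes it at least 5.98-fold higher in females (adjusted p = 0.00972), while the brightest probe set of Arsb differed by -0.07 (adjusted p = 0.685). With each male value raised to the limit, the p-value of 0.00972 takes in no spread among male pools. Other probe sets that passed were those of Atp6v1h (1.13, adjusted p = 0.0215), Ctsb (0.71, adjusted p = 0.0379) and Atp6v1g1 (0.68, adjusted p = 0.0383), higher in females. Those of Atp6v0a1 (-1.04, adjusted p = 0.0182), Lipa (-0.91, adjusted p = 0.0463) and Atp6v1d (-0.63, adjusted p = 0.0484) were lower in females.

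None of these 7 passed without 1 of the control or 1 week pools, and 3 (Arsb, Atp6v0a1, Atp6v1h) passed without either 8 week pool, with the sign kept in all 7. Only that of Atp6v1d was the brightest probe set of its gene. The brightest probe sets of Atp6v1g1, Lipa and Atp6v0a1 had the opposite sign, at -0.42, 0.29 and 0.38, and those of Atp6v1h and Ctsb differed by -0.03 and 0.01. The change with the transgene, both durations together, did not pass as different between the sexes at any of the 83 probe sets (0% of all probe sets passed), with a smallest adjusted p of 1 and 1 probe set, of Fuca1, at an unadjusted p under 0.05. Among brightest probe sets, the largest differences, female change minus male change, were 0.56 in Ctsc, 0.51 in Lgmn and 0.46 in Npc1, each higher in transgenic females than in control females. Other probe sets reached 1.25 (Atp6v0a1), 0.98 (Fuca1), 0.93 (Gusb) and -0.68 (Ctsc).

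Other genes of the lysosome were listed apart from the 43. Of 73 listed 60 were measured, with a median change of 0.19 at 8 weeks. Without overlap 30 were higher (50%, against 27.2% of all genes) and 5 lower (8.33%, against 14.1%). By limma 2 rose and 0 fell, while 35 and 7 of all 13215 genes did. Gpnmb, a membrane glycoprotein of macrophages, read 8.12 and 8.31 at 8 weeks, 6.57 and 6.71 at 1 week, and 6.47 and 6.90 in control, and rose by 1.53 (adjusted p = 0.047). Pla2g15, the lysosomal phospholipase A2, which degrades surfactant phospholipid in alveolar macrophages, read 8.44 and 8.80 at 8 weeks, 6.98 and 7.43 at 1 week, and 6.97 and 7.28 in control, and rose by 1.50 (adjusted p = 0.047). In both genes the 1 week pools lay within or close to the control range. Neither passed when any 1 pool other than the male 8 week pool was left out, since no probe set of the array then did.

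Larger values were seen in genes that did not pass. The calcium channel Mcoln3 had 2.46 (adjusted p = 0.0695), the macrophage protein Cd68 1.77 (adjusted p = 0.101) and Atp6v0d2 2.41 (adjusted p = 0.126). Atp6v0d2, the form of subunit d known from osteoclasts and macrophages, read 9.06 and 8.47 at 8 weeks, 7.14 and 5.82 at 1 week, and 5.75 and 6.96 in control. This is 2.41 beside 0.43 for Atp6v0d1, the form used in most cells. Tcirg1, the form of subunit a in osteoclasts, had 0.44 (adjusted p = 0.157) without overlap, beside 0.30 for Atp6v0a1. The lowest values of this list were those of the calcium channel Tpcn1 (-0.39), the hyaluronidase Hyal2 (-0.37), Laptm4a (-0.30) and the nuclease Dnase2a (-0.30).

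Regulators of lysosomes and autophagy genes were nearer to the rest of the array. Of 27 listed 26 were measured, with a median of 0.05. Without overlap 8 were higher (30.8%, against 27.2% of all genes) and 1 lower (3.85%, against 14.1%). By limma 0 passed, and 4 were higher at an unadjusted p under 0.05, against 13.8% of all genes. Tfeb read 8.03 and 8.42 at 8 weeks, 7.35 and 7.98 at 1 week, and 7.74 and 7.95 in control, a change of 0.38 (adjusted p = 0.249). Mitf had 0.32 (adjusted p = 0.261) and Tfe3 0.23 (adjusted p = 0.438), all without overlap. Tfec, the fourth member of this family and known from macrophages, read 7.50 and 7.02 at 8 weeks, 5.42 and 3.95 at 1 week, and 4.26 and 5.23 in control, a change of 2.51 (adjusted p = 0.111), with the male 1 week pool at the lower limit. Mtor, the kinase that holds TFEB in the cytosol, had -0.26 (adjusted p = 0.399).

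Markers of some other cell types were higher in the same pools as the lysosomal genes. Of 27 macrophage and monocyte markers 25 were measured, with a median of 1.01 at 8 weeks, 23 with a positive and 2 with a negative change. Without overlap 18 were higher (72.0%, against 27.2% of all genes). By limma 2 of them rose (35 of all 13215 genes did), with the same dependence on single pools. These were Ms4a7 by 2.40 (adjusted p = 0.048) and Msr1 by 1.53 (adjusted p = 0.0474). The summed intensity of the 25 markers was 34916.6 and 33166.7 at 8 weeks, 25708.9 and 21588.2 at 1 week, and 21565.6 and 24966.8 in control. The 41 lysosomal genes summed to 76079.7 and 78960.3 at 8 weeks, 64543.9 and 63085.5 at 1 week, and 60363.7 and 63489.2 in control. None of the 25 markers lay at the lower limit on any array. Siglecf, Marco and Chil3, which mark alveolar macrophages, had 2.67, 2.17 and 3.89, while the growth factor receptor Csf1r had 0.01 and the engulfment receptor Mertk -0.39.

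The 12 neutrophil markers measured had a median of 1.46 and 11 were higher without overlap (91.7%, against 27.2% of all genes). By limma 4 of them rose (35 of all 13215 genes did), with the same dependence on single pools. Mmp8 rose by 1.96 (adjusted p = 0.047), Mmp9 by 1.52 (adjusted p = 0.048) and Trem1 by 1.50 (adjusted p = 0.047). Clec4d lay between Mmp8 and Mmp9 (adjusted p = 0.047). The 13 alveolar type 2 markers had a median of 0.30, and 12 were higher without overlap (92.3%, against 27.2% of all genes). B cell (0.43) and T cell markers (0.25) had positive medians. Without overlap, 0 of 4 B cell and 2 of 6 T cell markers (33.3%) were higher, against 27.2% of all genes. The B cell median was 0.006 in females and 0.84 in males. Cardiac muscle (-1.70), ciliated (-0.53), smooth muscle (-0.43), club (-0.22) and endothelial markers (-0.17) had negative medians, and alveolar type 1 markers -0.04. The part of these cell types in the lysosomal values was not tested.

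**Figure D5:**
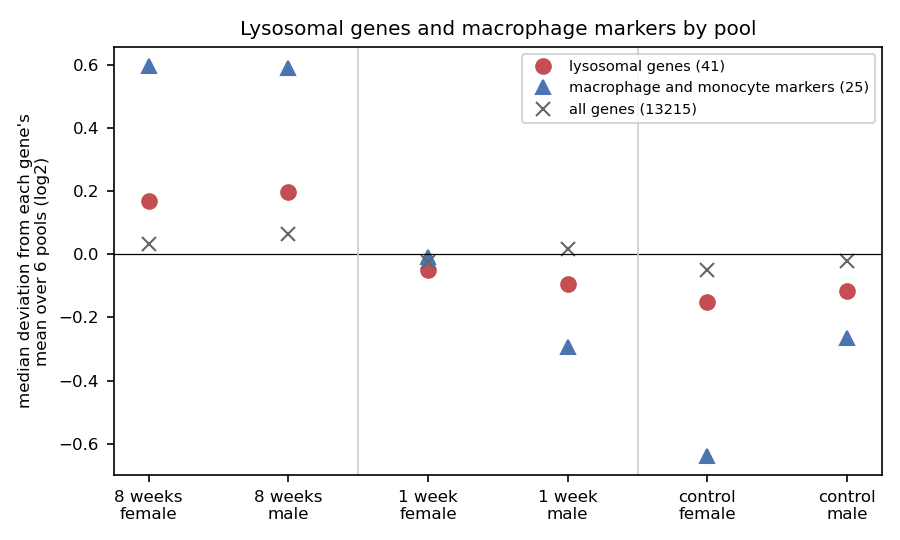
Median deviation (vertical axis, log2 units) of the 41 lysosomal genes, of 25 macrophage and monocyte markers and of all genes from each gene's mean over the 6 pools, for each pool (horizontal axis). The 8 week pools have the highest values in both lists, 0.17 and 0.20 for the lysosomal genes and 0.59 and 0.59 for the markers, while all genes stay between -0.05 and 0.07.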

How the data were processed

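Expression was read on 6 Affymetrix arrays, each of pooled whole lung RNA from 3 mice. The deposited table held 1 linear intensity for each probe set and array, from 10 to 11513.01. How the authors summarised and scaled them is not given in the sources used here. Biotin-labelled antisense RNA was hybridised, per the labels' protocols.

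From the deposited intensity values, arrays were quantile normalized, values under the 20th percentile (15.46, log2 3.95) were raised to it, log2 was taken, and probe sets with a mean above the 40th percentile were kept (27022 of 45037). Each was fitted with limma 3.58.1 (R 4.3.3) on group plus sex, using the 6 arrays together (2 residual degrees of freedom, prior 2.77). A model of transgene, sex and their interaction gave the sex difference in response (prior 2.48). P-values were adjusted by Benjamini-Hochberg within a comparison over all kept probe sets, at 0.05. A gene was read at its brightest kept probe set with 1 platform symbol (34945 probe sets had 1), without setting the level of one gene against another. Values at the floor are upper limits.

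The sex term pairs the pools: differences between female and male pools correlated across probe sets between groups (0.6406 for 1 week and control, 0.4841 for 8 weeks and control, 0.6385 for 8 weeks and 1 week).

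The genes and all lists were chosen with earlier results of these data known, and no test was made over a list. Pool values are given for the genes with the 8 highest and up to 6 lowest changes at 8 weeks and the 4 highest and 4 lowest at 1 week in both sexes, those that passed in any comparison, the 3 with the largest interaction, and a set of 10 always given. The model was tested on simulated data. Promoters came from RefSeq (GRCm38.p6). Figures used Python 3.11.15 and matplotlib 3.10.9. Alternatives covered normalization, floor, filter, probe set choice, the sex term, variance moderation and each array left out.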

Additional observations from a re-analysis of the deposited data

How the results depend on the processing

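The scaling moved all genes together: the median change of all genes at 8 weeks was 0.08 as reported, -0.08 with the values as deposited and 0.20 with arrays centred on their medians. The lysosomal median was 0.32, 0.22 and 0.49 under these, so the gap between the lists was 0.25, 0.30 and 0.30. The count of lysosomal genes higher at 8 weeks without overlap was 30, and 23 as deposited (14.5% of all genes) and 34 centred (37.9%). Leaving out 1 array gave medians of 0.28 to 0.33 and counts of 30 to 34 (27.2% to 45.4% of all genes), where an arm with 1 pool is assumed to vary like the others.

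At 8 weeks 161 probe sets passed, 56 of them higher. The count was 461 as deposited (76 higher), 705 centred (318 higher), 439 with a floor at the 40th percentile, 583 with log2(value + 16), 505 with a filter at the 60th percentile (223 higher) and 1916 with trend and robust moderation. It was 0 without the filter, without the sex block, with only the arrays compared and with unmoderated least squares. Without 1 array it ran from 0 to 1071: 1071 without the male 8 week pool and 0 without any of the other 5. With 1 value per gene it was 208 (158 higher). Of lysosomal probe sets, 0 passed as reported, 3 centred (Ctsd, Ctss, Ctsz), 1 with the higher floor, 1 with log2(value + 16) and 1 with 1 value per gene (Ctss in each), 4 with the stricter filter (Gusb as well) and 16 with trend and robust moderation.

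At 1 week the lysosomal median was 0.11 centred, 0.0167 as deposited, 0.0294 with 1 value per gene and 0.0369 to 0.0994 without 1 array, up to 6 of 25 named genes changed sign in a setting, and 1 probe set passed with 1 value per gene and 3 with trend and robust moderation. Between 8 weeks and 1 week it was 0.19 as deposited, 0.38 centred and 0.21 to 0.32 without 1 array. There, 62 probe sets passed with the stricter filter, 118 with 1 value per gene (1 of them lysosomal, Ctss) and 752 with trend and robust moderation (6 lysosomal). Between the sexes 2244 passed, 1462 without suffixed probe sets, 1303 with 1 value per gene, 4183 with trend and robust moderation, 0 without the filter or moderation, and 0 to 1279 without 1 array. The 7 lysosomal calls between the sexes became 2 with 1 value per gene, 15 with trend and robust moderation, 0 without the filter or moderation, and 0 to 3 without 1 array. The 7 sex calls kept their sign wherever their probe set was tested (3 with the stricter filter, 6 without suffixed probe sets, 0 with 1 value per gene, 7 otherwise). The causes were not tested. The number of arrays limits every comparison.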
